A study of Mus musculus with 6 samples.

Results

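Strong later-intron intervals were regions of open chromatin in mouse kidney that lay inside genes, beyond the first intron and away from any annotated start of transcription. They were chosen by their fold enrichment: an interval was taken when its highest summit lay in intron 2 or later of the canonical protein-coding transcript of a gene, in no exon and in no first intron, more than 3 kb from the transcription start site (TSS) of any protein-coding or long non-coding transcript, and a fold enrichment of 10 or more. The rule found 5284 intervals, which were 1.89% of the 279569 intervals of the deposited peak call, 15.7% of the 33555 autosomal intervals of at least 10-fold, and 7.64% of the 69201 later-intron intervals of any fold. Fold enrichment here is the pileup of Tn5 insertions at a summit over a background, and its values show no correction for local background.

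The assay was ATAC-seq, in which the transposase Tn5 inserts sequencing adapters into accessible DNA, and it was run on freshly dissected kidney cortex. The wild-type group (WT, 3 libraries in batches 1 and 2) carried the treatment label Control, and the Acly cKO group (3 libraries in batches 4 and 5, with the same treatment label) carried a deletion of Acly, the enzyme that makes cytosolic acetyl-CoA from citrate, in kidney tubules. The deletion was driven by Ksp-Cre, which is expressed from the Cdh16 promoter in tubular epithelium, so the other cells of the cortex kept the gene, and the study's controls for this deletion were Cre-negative littermates with Acly fl/fl alleles. The age of these mice was not given for the assay. The study also drew on wild-type libraries deposited earlier. The intervals came from 1 call on pooled libraries whose members are not named, so whether those earlier libraries are among them is not known, and the file held no value for a single library, so WT and Acly cKO could not be compared in these values and genotype and batch cannot be told apart. In bulk tissue, an interval open in few cells and one weakly open in many cells cannot be told apart either.

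Active enhancers are stretches of open chromatin where sequence-specific factors bind, and many of them lie in introns, either of the gene they act on or of a neighbour. The HNF1 and HNF4 motifs are well known from tubule genes of the kidney, AP-1 (Fos and Jun dimers) opens chromatin in most cell types, NF1 factors (Nfia, Nfib, Nfic and Nfix) bind a palindrome, and CTCF binds the anchors of chromatin loops. A match of a motif in a window is a description of letters, not a bound site.

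The following 120-base stretches show motifs that were over-represented in the intervals, each from the strongest interval that held it. They are read from the plus strand of GRCm39, 5′ to 3′, with the motif match in capitals. The first lies at chr6:108435343-108435462 in intron 44 of 61 of Itpr1, the calcium release channel of the endoplasmic reticulum, in an interval of 56.0-fold enrichment. The second lies at chr7:16751020-16751139 in intron 2 of 12 of Ppp5c, a serine/threonine phosphatase, in an interval of 62.7-fold. The third lies at chr5:131629270-131629389 in intron 5 of 18 of Auts2, in an interval of 43.0-fold. The last lies at chr1:194342828-194342947 in intron 3 of 31 of Plxna2, a semaphorin receptor, in an interval of 31.5-fold.
HNF1 in Itpr1: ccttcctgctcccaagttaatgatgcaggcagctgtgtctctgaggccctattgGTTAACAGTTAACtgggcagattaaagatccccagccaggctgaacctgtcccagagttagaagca
AP-1 in Ppp5c: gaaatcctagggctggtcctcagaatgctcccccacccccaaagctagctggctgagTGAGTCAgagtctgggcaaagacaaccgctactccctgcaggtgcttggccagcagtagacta
CTCF in Auts2: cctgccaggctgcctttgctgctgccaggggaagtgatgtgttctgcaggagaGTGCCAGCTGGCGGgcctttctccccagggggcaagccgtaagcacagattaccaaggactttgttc
HNF4 in Plxna2: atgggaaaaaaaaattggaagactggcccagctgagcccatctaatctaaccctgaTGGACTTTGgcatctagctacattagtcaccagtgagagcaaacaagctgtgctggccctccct

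A further set shows the 200-base windows around the highest summit of the strongest interval in marker genes of the tubule and collecting duct, with every match of the 16 motifs searched in capitals (plus strand of GRCm39). Cubn (chr2:13377092-13377291) encodes the endocytic receptor cubilin of the proximal tubule, and its window held an AP-1 and a TEAD match. Slc3a1 (chr17:85348425-85348624) encodes a subunit of the proximal cystine transporter, and its window held an HNF1 match. Trpm6 (chr19:18867744-18867943), the magnesium channel of the distal convoluted tubule, had an AP-1 match in its last intron. Tfcp2l1 (chr1:118599994-118600193) is a transcription factor of the collecting duct, Car12 (chr9:66643899-66644098) is a carbonic anhydrase, and St6gal1 (chr16:23153033-23153232) is a sialyltransferase; all 3 windows held an HNF1 match, with AP-1 as well in Car12 and TEAD and GATA in St6gal1.
Cubn: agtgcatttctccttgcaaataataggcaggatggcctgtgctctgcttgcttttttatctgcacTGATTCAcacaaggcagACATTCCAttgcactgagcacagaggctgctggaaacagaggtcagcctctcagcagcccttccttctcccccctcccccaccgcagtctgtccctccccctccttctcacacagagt
Slc3a1: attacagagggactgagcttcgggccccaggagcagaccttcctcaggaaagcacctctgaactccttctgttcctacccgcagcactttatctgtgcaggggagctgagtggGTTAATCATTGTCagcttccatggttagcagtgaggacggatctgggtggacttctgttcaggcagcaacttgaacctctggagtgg
Trpm6: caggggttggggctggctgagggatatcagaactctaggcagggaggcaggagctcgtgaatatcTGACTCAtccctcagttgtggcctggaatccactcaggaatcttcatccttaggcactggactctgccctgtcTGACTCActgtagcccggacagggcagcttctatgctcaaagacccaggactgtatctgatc
Tfcp2l1: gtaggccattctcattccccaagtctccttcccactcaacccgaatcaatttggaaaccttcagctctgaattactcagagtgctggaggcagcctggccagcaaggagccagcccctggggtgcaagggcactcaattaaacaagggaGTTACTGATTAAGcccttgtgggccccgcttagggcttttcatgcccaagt
Car12: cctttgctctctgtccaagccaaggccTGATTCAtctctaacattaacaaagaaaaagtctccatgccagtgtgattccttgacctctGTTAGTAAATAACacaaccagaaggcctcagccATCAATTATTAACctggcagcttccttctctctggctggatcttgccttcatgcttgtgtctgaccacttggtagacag
St6gal1: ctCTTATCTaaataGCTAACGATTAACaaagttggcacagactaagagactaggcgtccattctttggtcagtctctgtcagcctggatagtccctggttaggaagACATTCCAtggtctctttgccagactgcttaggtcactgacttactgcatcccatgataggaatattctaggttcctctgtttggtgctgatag

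The windows of Slc4a4, Enox1 and Atp1b1, the other named genes of these lists, held none of the 16 motifs.

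The intervals were wide and had several summits. Their median width was 2040.5 bp, with quartiles at 1371 and 3233 bp, against a median of 363 bp for the 63917 later-intron intervals under 10-fold. Their median number of summits was 5, and 9.97% had a single summit, against 60.05% of the weaker later-intron intervals. Other strong intervals also had several summits: those in first introns had a median of 2447 bp and 6 summits with 7.15% single, and those between genes 1694 bp and 4 summits with 14.8% single. Width and number of summits came from the same call as the fold enrichment that chose the intervals, so these values are descriptions. The median fold enrichment was 14.5 with quartiles at 11.7 and 19.6. Of the intervals, 53.7% lay between 10- and 15-fold, 22.3% between 15- and 20-fold, 17.0% between 20- and 30-fold, 6.25% between 30- and 50-fold and 0.757% at 50-fold or more. The fold took stepped values: 47 intervals, among them those in Tnr, Epm2a and Tph2, stood just inside the limit at 10.02-fold, and 61 intervals, among them those in Mcph1, Xkr5 and Rbms3, stood just outside it at 9.95-fold.

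Sequence around the summits was moderately rich in G and C and poor in CpG. The median GC content of the 200-base windows was 51.0% (quartiles 47.0 and 55.0%), the same as in 2307 strong first-intron intervals and 3989 strong intergenic intervals within 50 kb of a TSS, which were found by the same distance and fold limits. The median observed-to-expected CpG ratio was 0.21, and 1.61% of the windows had a ratio above 0.6 with a GC content over 50%, against 1.56% in first introns and 5.16% between genes. A TSS of another transcript type lay within 1 kb of 317 summits, and 16 intervals covered a miRNA gene, among them Mir107 in intron 5 of Pank1 and Mir3075 in intron 2 of Zmiz1. The whole interval, not only its summit, was clear of exons and of the 3-kb regions around TSSs in 3191 cases (60.4%).

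The 4 intervals of highest fold enrichment lay in partly repeated sequence, and the next 6 did not. The interval in intron 4 of Chl1, a neural cell adhesion molecule (chr6:103626022-103626253), reached 230.1-fold, that in intron 2 of Gphn, the receptor scaffold gephyrin (chr12:78397643-78397950), 109.1-fold, and that in intron 3 of Jarid2, a subunit of the Polycomb complex PRC2 (chr13:45023045-45023500), 80.1-fold. These 3 were 232, 308 and 456 bp wide with a single summit. In their windows 61.8, 63.5 and 37.1% of the 31-base words occurred more than once in the reference; the part of reads from other copies was not tested. Camk1d, a calmodulin-dependent kinase, had the interval of 153.9-fold in intron 3 (chr2:5381649-5384652), with 5 summits over 3004 bp and 35.3% repeated words. The other 6 were wider and without a repeated word. They lay in Prdm2 (73.4-fold), Phf19 (72.5-fold), Edar (67.6-fold), Gm44511 (66.9-fold), Foxk1 (64.6-fold) and Fstl3 (63.8-fold), with widths from 3250 bp in Edar to 8938 bp in Foxk1. Prdm2 and Phf19 encode chromatin regulators, Edar the ectodysplasin receptor, Foxk1 a forkhead factor and Fstl3 an activin-binding protein. Over all 5284 intervals, 94.1% had no repeated word, 25 had at least 50% of their words repeated, and 0 matched mitochondrial DNA over 100 bp at 80% identity.

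At the other end of the width range, 564 intervals (10.7%) were wider than 5000 bp, 111 (2.10%) wider than 10000 bp and 14 (0.265%) wider than 20000 bp. The widest, with 287 summits over 97914 bp, lay over introns of Tns1, a focal adhesion protein (chr1:73960747-74058660), with its highest summit of 46.0-fold in intron 4. It was followed within Tns1 by intervals of 31018 bp (51.7-fold), 9815 bp (60.5-fold) and 7991 bp (16.2-fold) toward the start of the gene. Tns3, another tensin, held an interval of 44539 bp with 142 summits and 32.8-fold at its highest. Others of this size lay in Rbpms, an RNA-binding protein (31639 bp), Ahdc1 (29653 bp), Timp3, an inhibitor of matrix metalloproteinases (29055 bp), Tspan14, a tetraspanin (28565 bp), Atp1b1, the beta subunit of the sodium pump (24265 bp), Jade1 (24084 bp) and Arid3a (23299 bp).

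The density of the intervals was 10.0 per Mb of eligible intron sequence, over 527 Mb of later introns after exons, first introns and TSS regions were removed. Counted over each base once, it was 10.1 per Mb, against 14.6 per Mb for strong intervals in first introns and 7.51 per Mb between genes within 50 kb of a TSS. Pooled over genes by intron number, the density was 13.0 per Mb (exact Poisson 95% interval 12.3 to 13.7) in intron 2 and 10.8 in intron 3. It was 9.33 in intron 5, 9.46 in introns 6 to 10 and 7.41 (6.64 to 8.24) beyond intron 20. Only genes with many introns enter the last class, so these classes hold different sets of genes. By distance from the TSS of the host gene, the density was 11.6 per Mb (10.4 to 12.8) at 3 to 10 kb, 12.7 (11.7 to 13.8) at 10 to 20 kb and 11.9 (11.2 to 12.6) at 50 to 100 kb. It was 10.1 per Mb at 100 to 200 kb and 6.19 per Mb (5.79 to 6.60) beyond 200 kb. Introns over 100 kb were the least dense class of length, with 6.27 per Mb (5.76 to 6.80), against 11.6 per Mb (11.02 to 12.15) for introns of 5 to 20 kb. The median summit lay 65062 bp from the host TSS. Across 5 equal stretches of the intron the density was nearly even, from 9.20 per Mb in the last to 10.6 per Mb in the middle one. By distance from the nearer intron end, the density was 10.6 per Mb at 0 to 200 bp and 11.4 at 1000 to 5000 bp. It was lowest beyond 20000 bp, at 7.24 per Mb (6.73 to 7.78), a class that only long introns enter. By chromosome it ranged from 8.27 per Mb on chromosome 9 to 12.6 per Mb on chromosome 4. These Poisson intervals cover counting error only.

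**Figure D1:**
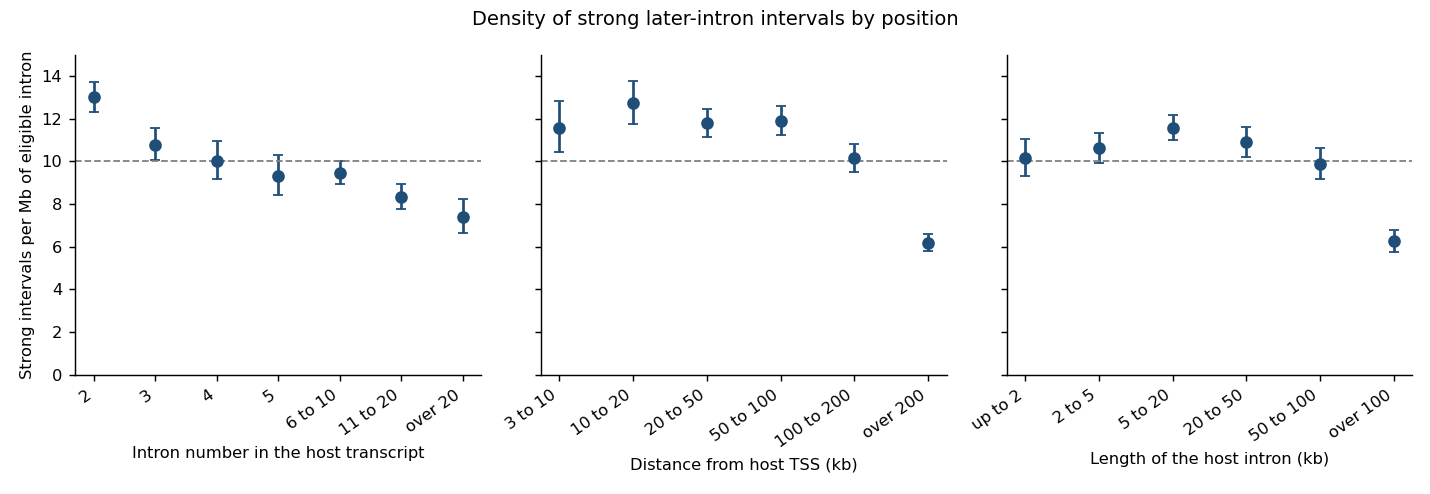
Strong later-intron intervals per Mb of eligible intron sequence (vertical axis) by intron number, by distance from the host TSS in kb and by length of the host intron in kb. Points are densities, bars exact Poisson 95% intervals and the dashed line the density of 10.0 per Mb over all eligible introns; the density falls from 13.0 in intron 2 to 7.41 beyond intron 20, and is lowest beyond 200 kb (6.19) and in introns over 100 kb (6.27).

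Of 14430 protein-coding genes with eligible intron sequence, 2791 (19.3%) hosted at least 1 interval. Of these hosts 1713 (61.4%) held 1, 888 held 2 to 4, and 190 held 5 or more and together 25.4% of the intervals. The hosts had more intron sequence, with a median of 43.7 kb eligible against 8.45 kb in genes without an interval. Hosts more often had a strong promoter as well: a summit of at least 10-fold lay within 1 kb of the canonical TSS in 78.0% of hosts and 64.3% of the other genes. The direction was the same in each of 4 classes of eligible length, at 73.1 against 59.5% in the shortest and 76.2 against 64.99% in the longest class. These shares were not tested, and genes that neighbour each other can share a promoter. Within genes, 1737 intervals (32.9%) shared their intron with another one, and the gap between neighbouring summits in an intron had a median of 9592.5 bp over 1094 pairs.

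The 10 genes with the most intervals were led by Itpr1 with 23 intervals in 15 introns, from 10.3- to 56.0-fold with a median of 16.5. Its 2 strongest lay in intron 44, 232.1 and 245.3 kb from the TSS, at 53.0- and 56.0-fold, and 9 of the 23 windows held an AP-1 match and 2 an HNF1 match. Nav2, a neuron navigator family member, held 22 intervals in 6 introns, 11 of them in intron 2, where they stood from 45.5 to 347.8 kb from the TSS and from 10.1- to 28.9-fold. Snx29, a sorting nexin, and Cdkal1, a tRNA-modifying enzyme, held 14 each, and Frmd4b and the RNA-binding protein Msi2 held 13 each. Glis3, a zinc finger factor known from cystic kidney disease, held 12, with HNF1 matches in 3 windows. Adgrv1, an adhesion receptor, also held 12, none of them nearer than 231.2 kb to its TSS. Sh3rf1, a ubiquitin ligase, held 11 intervals, the strongest at 57.9-fold, and Fndc3b held 11 with the highest median fold of these genes, 19.7. Per Mb of eligible intron, Itpr1 had 82.4 intervals, Sh3rf1 78.3, Frmd4b 64.0, Fndc3b 56.3 and Adgrv1 27.4. All 10 genes were long, with 140.4 kb (Sh3rf1) to 557.5 kb (Nav2) of eligible intron.

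Gene lists of cell types differed more in the density of the intervals than in the share of genes that held one. The lists were chosen with earlier results of these data known, so the counts are descriptions, and each is read beside the background of 19.3% of eligible genes and 10.0 intervals per Mb. Proximal tubule markers held 27 intervals in 11 of 43 eligible genes (25.6%), which was 20.4 per Mb (exact Poisson 95% interval 13.5 to 29.7). Collecting duct markers held 11 in 6 of 25 genes (24%), or 23.2 per Mb (11.6 to 41.4), and markers of the loop of Henle and distal tubule held 19 in 8 of 30 genes (26.7%), or 13.4 per Mb (8.05 to 20.9). The shares of genes were close to the background, and the densities of the proximal tubule and collecting duct lists stood above it. Few genes carried these densities: Slc4a4 held 9 and Cubn 5 of the 27 proximal tubule intervals, and Tfcp2l1 held 4 of the 11 collecting duct intervals. Podocyte markers held 17 intervals in 7 of 19 genes, at 7.19 per Mb (4.19 to 11.5), and endothelial markers 10 in 7 of 22 genes, at 7.83 per Mb (3.76 to 14.4). Immune cell markers were at 5.57 per Mb (2.41 to 10.98) with 4 of 23 genes, and stroma markers at 5.31 per Mb (2.65 to 9.50) with 3 of 23 genes.

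Neuronal and synaptic genes had a high share and a low density. Of 38 eligible genes 18 (47.4%) held an interval, the highest share of a cell type list, yet the density of 2.26 per Mb (1.62 to 3.07) was the lowest of these lists. These genes had a median of 329 kb of eligible intron, and the density at matched intron length was not tested. Genes of cardiac and skeletal muscle were at 4.04 per Mb (1.48 to 8.79) with 4 of 27 genes, and liver secretory genes at 9.14 per Mb (1.89 to 26.7) with 3 intervals in 2 of 23 genes. The tissue label was also checked at the promoters: the median of the highest fold within 1 kb of the TSS was 16.04 for proximal tubule, 13.7 for loop and distal tubule, 12.6 for collecting duct and 18.5 for podocyte markers, against 7.92 for stroma, 5.30 for endothelium, 1.96 for immune cells, 4.03 for neurons, 2.95 for liver and 2.23 for muscle.

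In tubule marker genes the strongest intervals were as follows. Slc4a4, the basolateral sodium bicarbonate cotransporter of the proximal tubule, held 9 intervals from 10.5- to 31.5-fold, the strongest in intron 3 (chr5:89136700-89139449). Cubn held 5, the strongest at 31.4-fold in intron 31 of 66, 119.4 kb from the TSS, and Slc3a1 held 2, the strongest at 29.7-fold in intron 4. Tfcp2l1 held 4 within 32.3 kb of eligible intron, at 51.3-, 30.6-, 27.4- and 12.6-fold. Its 51.3-fold interval (chr1:118593262-118600561) ranked 37 among all 5284, and 2 of its 4 windows held HNF1. Enox1 reached 45.3-fold in intron 5, 329.3 kb from its TSS, and Trpm6 35.8-fold in intron 38, its last. Atp1b1 held 1 interval of 26.2-fold that was 24265 bp wide. Car12 reached 19.5-fold and St6gal1 18.8-fold.

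Among non-tubule markers some single intervals were as strong. The endothelial receptor gene Adgrl4 had 46.2-fold in intron 2, Ets1 29.1-fold and Pecam1, the endothelial adhesion molecule CD31, 14.8-fold. Magi2, a scaffold of the podocyte slit diaphragm, had 6 intervals, the strongest at 21.5-fold, with Dach1 at 19.4- and Myo1e at 17.9-fold. Of immune genes Dock2 reached 20.5-fold, Spi1, which encodes PU.1, 16.3-fold, and Skap1 15.1-fold; of stroma genes Rbms3 reached 19.6-, Cacna1c 14.9- and Meis1 11.9-fold. Cntn5, a neural adhesion gene, had 37.1-fold and Syt1, a synaptic vesicle protein, 36.7-fold, while Dlg2 had 25.8-fold. In Ldb3 and Myom1, genes of the muscle sarcomere, the strongest were at 41.5- and 29.4-fold, and Trdn had 11.2-fold. The complement genes C3 and C8a of the liver list had 19.3- and 10.4-fold. An interval in an intron need not act on the gene that holds it, and no expression was measured in these files.

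Pathway lists differed in the same way. Tubule transporter and channel genes held 49 intervals in 25 of 51 genes (49.0%), at 22.8 per Mb (16.9 to 30.2), led by Abcc4, an organic anion exporter, at 46.3-fold, the anion transporter Slco3a1 at 37.7-fold and the taurine transporter Slc6a6 at 28.7-fold. Nuclear receptors and HNF factors held 42 in 18 of 37 genes (48.6%), at 20.7 per Mb (14.9 to 28.0). Among these, Nr3c2, the mineralocorticoid receptor, held 5 with 49.95-fold at most, and the retinoic acid receptor gene Rarb held 3 with 34.3-fold at most. The nuclear factor I and Krüppel-like factor list was the densest, with 25 intervals at 28.5 per Mb (18.5 to 42.1), but they came from 4 of 13 genes. Nfib alone had 11, from 10.8- to 37.6-fold, Nfia 6 with 28.1-fold at most, and Klf12 5 with 17.7-fold at most.

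Genes of the actin cytoskeleton and focal adhesions held 53 intervals in 21 of 45 genes (46.7%), at 20.7 per Mb (15.5 to 27.04), led by Tns1 at 60.5-fold, Parvb at 33.8-fold and Tns3 at 32.8-fold. Matrix and fibrosis genes held 39 in 19 of 53 genes (35.8%), at 15.9 per Mb (11.3 to 21.7). The strongest of these lay in Smad7, an inhibitor of TGF-beta signalling (55.3-fold), Timp3 (49.6-fold) and the basement membrane collagen Col4a2 (34.5-fold, 4 intervals). Fatty acid oxidation genes held 12 in 11 of 39 genes, at 20.2 per Mb (10.5 to 35.3), with Acsl1, which activates long-chain fatty acids, at 58.0-fold, Acadl at 24.6-fold and Decr1 at 21.3-fold. JAK-STAT genes were near the background with 11 in 6 of 34 genes, at 12.7 per Mb (6.36 to 22.8): the interferon gamma receptor Ifngr1 had 23.9-fold, the growth hormone receptor Ghr 18.8-fold and the phosphatase gene Ptpn11 18.1-fold. Genes of acetyl-CoA metabolism and histone acetylation held 11 in 7 of 45 genes, at 6.19 per Mb (3.09 to 11.1), with Aco1 at 43.7-, the acetyltransferase gene Kat8 at 39.2- and Hdac4 at 23.2-fold.

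**Figure D2:**
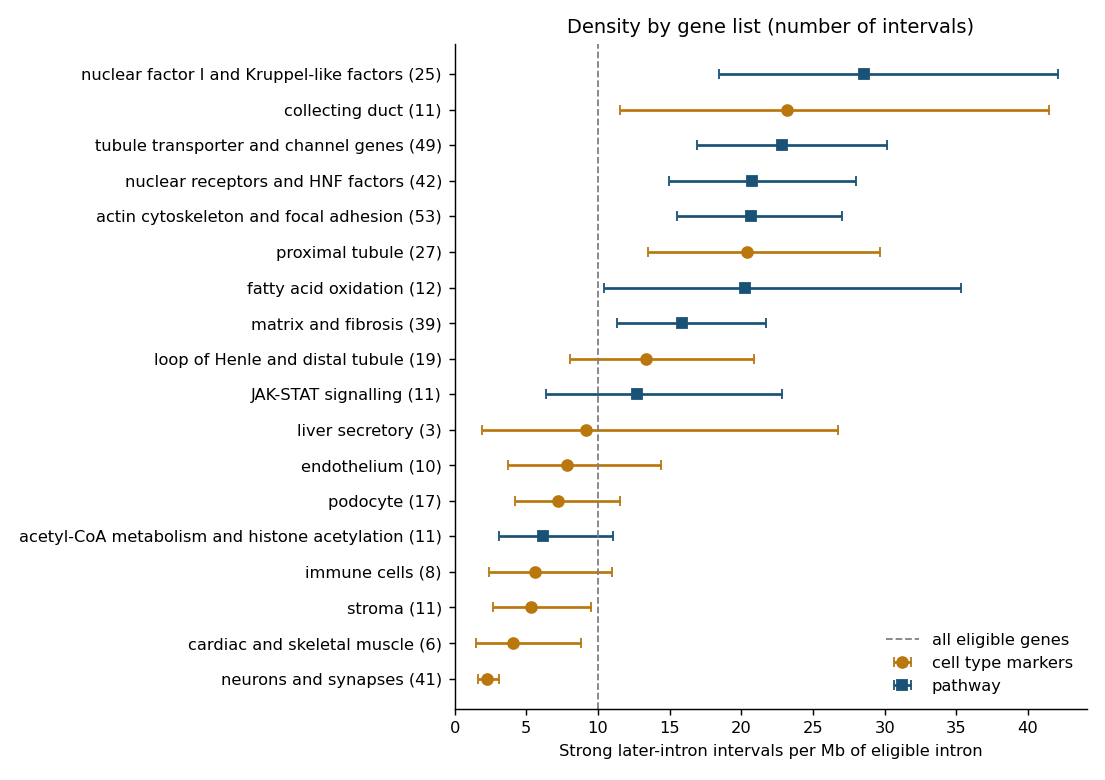
Strong later-intron intervals per Mb of eligible intron sequence for each gene list, with the number of intervals in parentheses; circles are cell type markers, squares pathways, bars exact Poisson 95% intervals, and the dashed line 10.0 per Mb over all eligible genes. Tubule transporters stand at 22.8 and proximal tubule markers at 20.4, neurons and synapses at 2.26.

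Of the 10 loci the study examined, 2 held a strong later-intron interval. Col27a1, a fibrillar collagen, held 6, the strongest at 29.3-fold over 10162 bp in intron 4 (chr4:63146930-63157091), and the others from 10.6- to 19.1-fold. Stat3 held 1, at 13.1-fold in intron 3 (chr11:100797901-100799753). Acly itself had 7 later-intron intervals, the strongest at 4.78-fold, beside a promoter summit of 50.2-fold. Jak1 had 15 with 8.64-fold at most and Jak2 6 with 8.31-fold at most, beside promoter summits of 57.6- and 49.5-fold. The strongest in Fn1, fibronectin, stood at 9.62-fold, in Col5a1 at 7.73-fold and in Acta2, smooth muscle actin, at 7.20-fold, all under the limit. Has3 had no later-intron interval over 3.26 kb of eligible intron, and Rpl30 had no eligible sequence.

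Motif matches were counted in the 200 bases around each highest summit, on both strands. The AP-1 pattern was TGANTCA, which is its own reverse complement apart from the open base. The patterns of nuclear receptors were CAAAGTCCA for HNF4 and TCAAGGTCA for the estrogen-related receptors (ERR). A forkhead (FOX) match required the letters TGTTTAC. Further patterns were CCGGAAGT for ETS factors, GAGGAAGT for PU.1 of myeloid cells, ACATTCCA for TEAD, CCCCGCCC for KLF/SP, AACCNGTT for GRHL/CP2 and TTCCNGGAA for STAT. GATA factors were represented by AGATAAG alone. These, the longer CTCF core and the glucocorticoid response element (GRE) were searched without mismatch, whereas the HNF1 palindrome and the direct repeat DR1 of nuclear receptors were allowed 2 mismatches and the NF1 full palindrome 1. The patterns of ETS and PU.1 share letters, and those of DR1 and ERR share a half-site. At least 1 of the 16 was found in 49.3% of the windows, against 32.7% of the windows of all 279569 intervals and 29.8% of the weaker later-intron intervals. Intervals of a share are Wilson 95% intervals and cover counting error only.

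HNF1 showed the highest ratio to all intervals. It was matched in 536 windows, 10.1% (9.36 to 10.99), against 2.70% of all intervals (2.64 to 2.76), a ratio of 3.75. AP-1 was the most frequent, in 1181 windows or 22.4% (21.2 to 23.5) against 12.4% of all intervals. HNF4 was matched in 2.04% against 0.884%, NF1 in 2.82% against 1.45%, DR1 in 3.10% against 1.99%, CTCF in 3.67% against 2.39% and TEAD in 2.42% against 1.59%. Other motifs were rarer in the strong later-intron intervals than over all intervals: GATA with 1.31% against 2.14%, KLF/SP with 1.99% against 2.88%, PU.1 with 1.63% against 2.16% and ETS with 0.265% against 0.591%. Within later introns the direction was not the same for all of these: KLF/SP was matched in 1.99% (1.64 to 2.40) of the strong and 1.24% (1.15 to 1.32) of the weaker intervals, and ETS in 0.265% (0.158 to 0.444) and 0.208% (0.176 to 0.247). ERR was found in 29 windows, 0.549% (0.382 to 0.787), against 0.680% of all intervals.

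Against other strong intervals the differences were small. The later introns were compared with strong first-intron and strong intergenic intervals for each motif, 32 comparisons in all, with Newcombe intervals for the difference at an error rate of 0.001. Only CTCF against first introns had an interval that left out 0: it was matched in 3.67% of the later-intron and 1.82% of the first-intron windows, a difference of 1.85 percentage points (0.46 to 3.04). That interval took in 0 with a fold limit of 20, at more than 10 kb from a TSS, and for intervals wholly clear of exons and TSS regions. Between genes CTCF was matched in 4.76%, and later introns minus intergenic gave -1.09 points (-2.54 to 0.28). HNF1 differed from first introns by 1.17 points (-1.34 to 3.46) and from intergenic intervals by 0.84 points (-1.23 to 2.86). For AP-1 these were -1.66 points (-5.21 to 1.74) and 0.26 points (-2.62 to 3.11). These intervals leave room for differences of a few points in either direction.

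**Figure D3:**
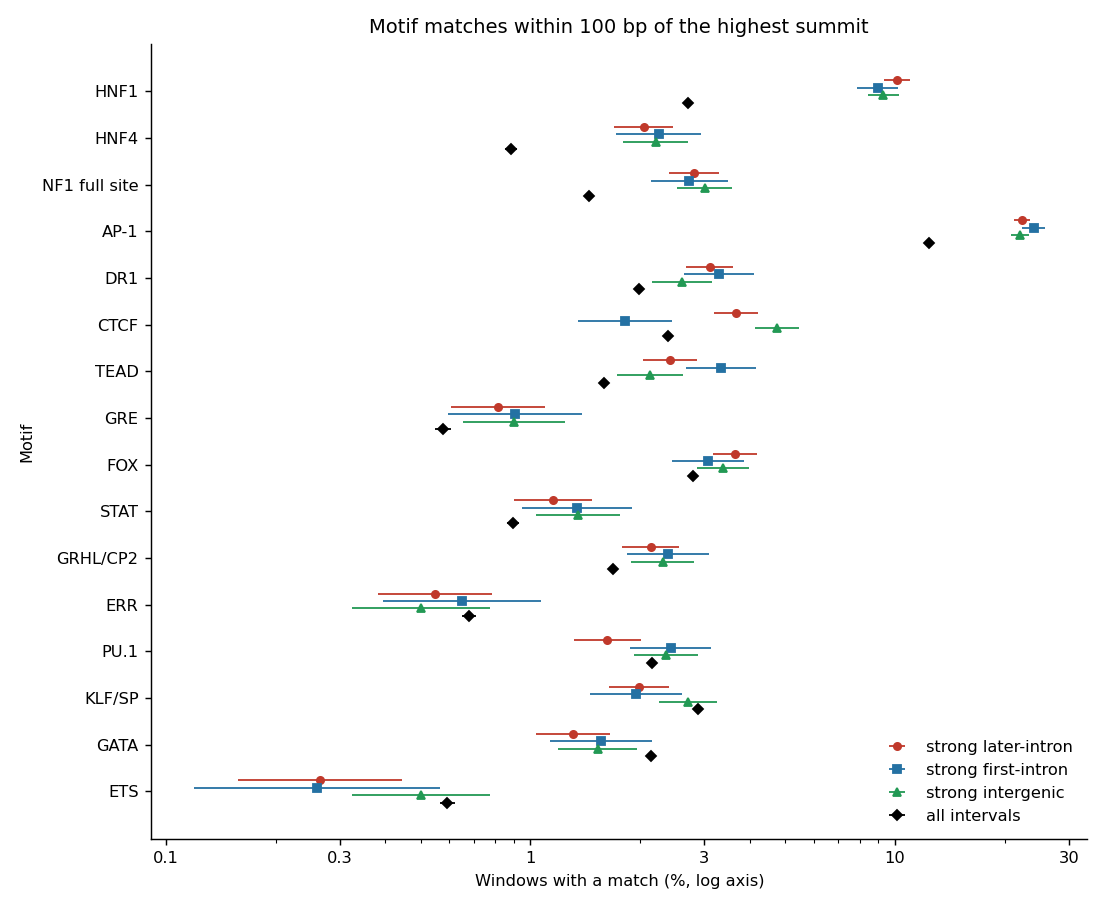
Share of 200-base windows with a match of each of 16 motifs (percent, log axis) in strong later-intron, strong first-intron and strong intergenic intervals and in all intervals, with Wilson 95% intervals as bars. HNF1 stands at 10.1, 8.97 and 9.30% in the 3 strong sets and at 2.70% in all intervals, and CTCF at 3.67, 1.82 and 4.76%.

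Within later introns the motifs followed fold enrichment along different courses. HNF1 rose from 1.05% of the windows under 3-fold to 3.69% at 3- to 5-fold, 5.52% at 5- to 10-fold, 9.41% at 10- to 20-fold and 13.1% (11.2 to 15.2) at 20- to 40-fold. Of the 127 intervals at 40-fold and over it was matched in 7.09% (3.77 to 12.9), an interval that overlaps that of the class below. AP-1 rose from 9.23% under 3-fold to 18.8% at 5- to 10-fold and 26.3% at 20- to 40-fold, and NF1 from 0.968% to 3.51% over the same classes. CTCF was highest in the middle, with 1.20% under 3-fold, 5.42% (4.95 to 5.92) at 5- to 10-fold, 4.13% (3.56 to 4.79) at 10- to 20-fold and 2.28% (1.56 to 3.32) at 20- to 40-fold. HNF4 was at 0.487% under 3-fold and 2.14% at 10- to 20-fold, with 0 of 127 windows at 40-fold and over, which allows up to 2.94%. GATA fell from 2.45% (2.31 to 2.59) under 3-fold to 1.29% (0.989 to 1.69) at 10- to 20-fold. Among the strong intervals, those with HNF1 had a median of 16.3-fold and a GC content of 46.0%, those with CTCF 12.8-fold and 52.5%, and those with none of the motifs 14.2-fold and 51.5%.

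**Figure D4:**
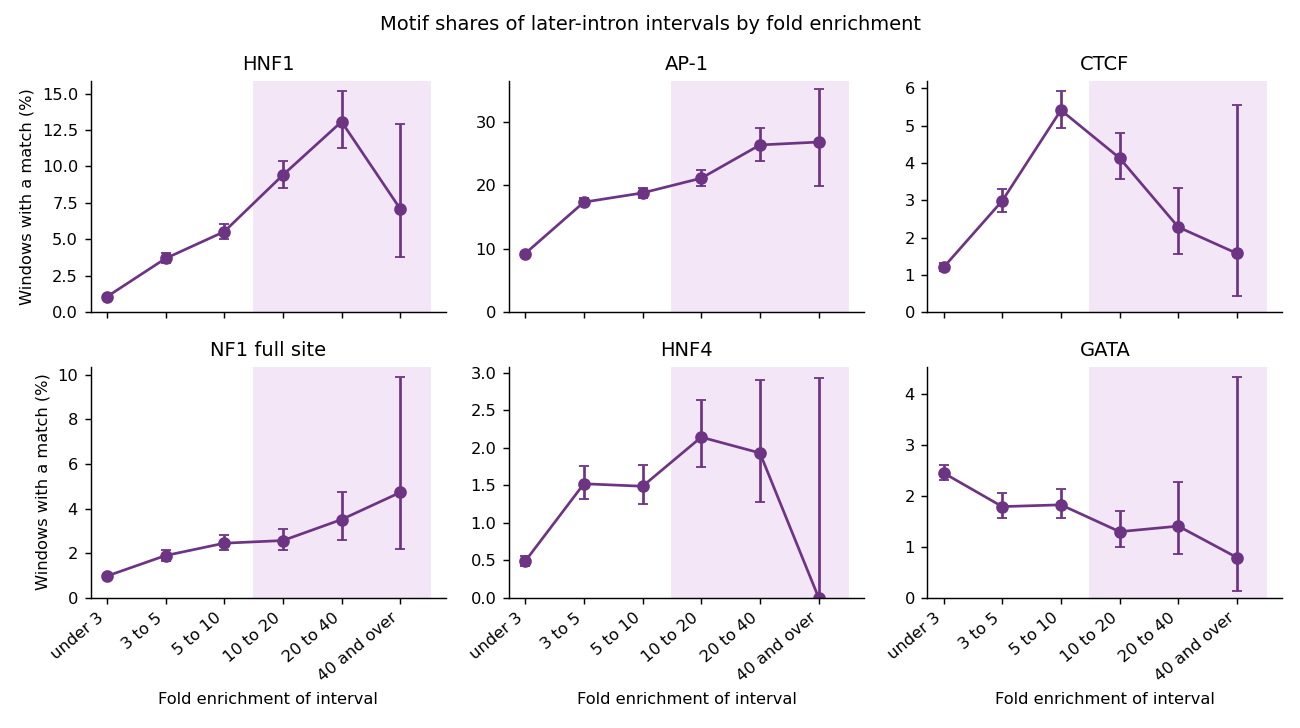
Share of later-intron windows with a match (percent) of 6 motifs by fold enrichment of the interval, with Wilson 95% intervals as bars; the shaded classes, from 10-fold, are the strong intervals. HNF1 rises to 13.1% at 20- to 40-fold, whereas CTCF is highest, at 5.42%, at 5- to 10-fold, and the last class holds 127 intervals.

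Most of the motifs that were over-represented were also centred on the summits. The density of HNF1 matches within 50 bp of the summit was 77.6 per 100 kb, 16.4 times that at 500 to 900 bp on either side. The ratio was 13.1 for HNF4, 11.8 for NF1, 8.36 for CTCF, 5.68 for AP-1, 3.82 for DR1 and 3.20 for TEAD. For STAT it was 2.46 and for GRE 1.6. Centring was not limited to over-represented motifs. KLF/SP and ETS, both rarer here than over all intervals, had ratios of 4.49 and 2.67, that of ETS from 9 matches within 50 bp. The ratio was nearer 1 for FOX (1.24), PU.1 (1.37) and GRHL/CP2 (1.43). It was 0.985 for ERR, whose 16 matches near the summit were as dense as those in the flanks. GATA was depleted there: 3.60 matches per 100 kb within 50 bp against 14.6 in the flanks, a ratio of 0.246. Base composition and the insertion preference of Tn5 also change around summits, and their part was not tested.

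**Figure D5:**
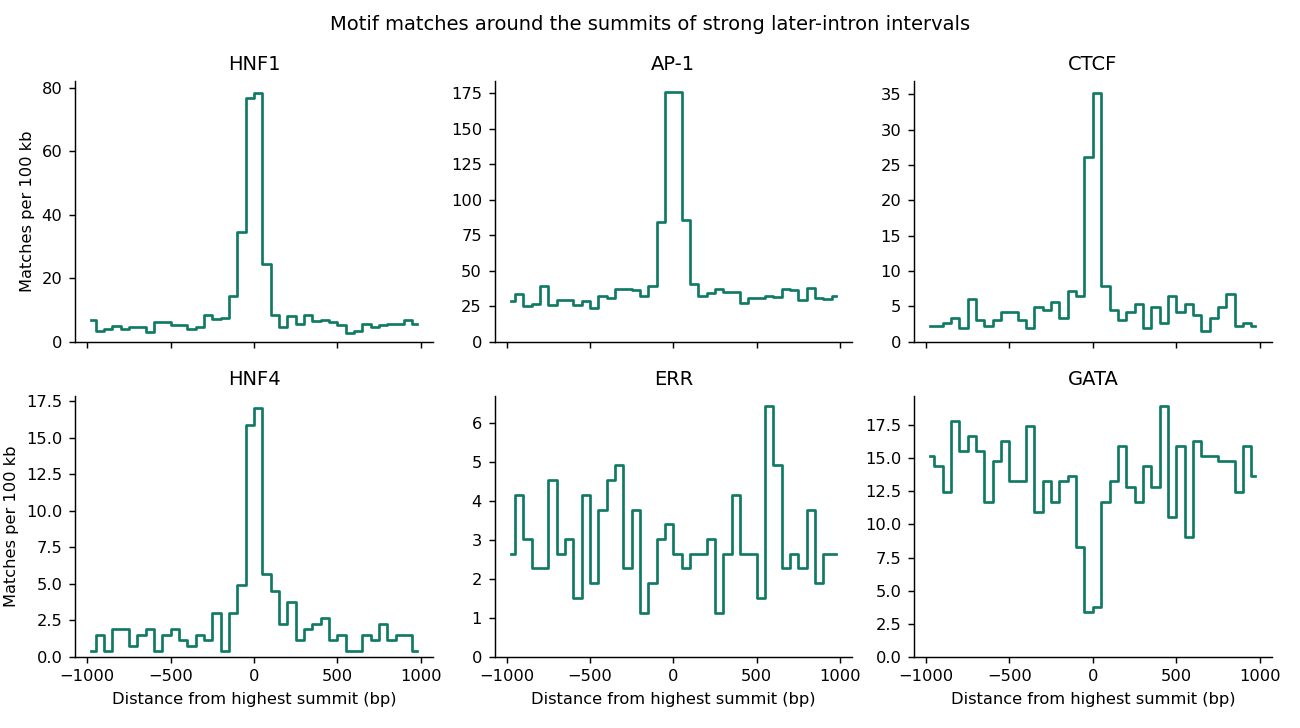
Matches per 100 kb in 50-bp bins by distance from the highest summit (bp), for 6 motifs over the strong later-intron intervals. HNF1, AP-1, CTCF and HNF4 peak at the summit (ratios of centre to flank from 5.68 to 16.4), ERR is level at 0.985 and GATA dips to 0.246.

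Motifs seldom met in 1 window. HNF1 and AP-1 were found together in 79 windows, 14.7% of those with HNF1 and 6.69% of those with AP-1, and CTCF and HNF1 in 4. Over all 5284 windows, AP-1 was matched in 22.4% and HNF1 in 10.1%. Of the 29 windows with ERR, 8 (27.6%) also held HNF1, against that 10.1% of all windows. This pair stands out of many with a small count and was not tested. Among these windows were those in Cgnl1, which encodes the junction protein paracingulin (25.8-fold), Dcaf6 (19.3-fold) and Epha4, an ephrin receptor (17.9-fold). The CTCF pattern lay on the strand of the host gene in 81 windows and on the opposite strand in 113.

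A few of the intervals were alike in sequence. When the 200-base windows were aligned with each other, 81 (1.53%) had a partner of at least 70% identity over at least 100 bp, in 22 families. The largest family had 24 intervals in 24 genes on 15 chromosomes, with 73.5 to 81.8% identity between the linked pairs. They stood at 10.3- to 27.4-fold, with a median of 13.6, and the strongest lay in Frrs1 (27.4-fold), Usp45 (26.7-fold), Stk24 (22.9-fold) and Pkhd1, the gene of recessive polycystic kidney disease (18.2-fold). HNF1 was matched in 5 of the 24 windows, and 14 had no 31-base word repeated elsewhere in the reference. Most of the other windows, among them those in Frrs1, Usp45 and Stk24, held a shared stretch close to the HNF1 palindrome. It fell just outside the limit of 2 mismatches, so the count of 5 depends on that limit. Windows alike to this family made up 0.258% of all intervals and 0.273% of later-intron intervals. Among later-intron intervals the share was 0.248% under 3-fold, 0.324% at 5- to 10-fold, 0.523% at 10- to 20-fold and 0.263% at 20- to 40-fold. The family was drawn from the intervals of at least 10-fold, so these shares are descriptions.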

How the data were processed

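ATAC-seq was run on kidney cortex from 3 WT and 3 Acly cKO mice. Per the submitters' processing notes and the study's methods, reads were trimmed (fastp) and mapped by the authors with Bowtie2 2.3.4.3, peaks came from MACS3 3.0.0, and bedtools 2.29.1 removed blacklisted regions and non-standard chromosomes; deepTools 3.5.1 was also used. The deposited values are the fold enrichment, a ratio of summit pileup to background, and the −log10 q of each summit, from 1 call on pooled libraries. Summits of equal fold had equal −log10 q at unlinked loci, such as 31.5-fold with 530.8 in both Slc4a4 and Plxna2. The fold therefore shows no correction for local background. The depth of a single library and the libraries in the pool are not given in the sources used here, so the precision of a single fold cannot be stated; 0 columns held per-sample values.

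Summits that share coordinates were merged into 1 interval, represented by its summit of highest −log10 q as deposited. Intervals were placed on GENCODE M39 (GRCm39): 84.3% of 18365 genes had a summit within 1 kb of an end in GRCm39, against 53.6% with GRCm38 coordinates. An interval in introns of several genes (32 cases) was assigned to the shortest intron. Eligible sequence was summed over genes. Windows were read with pysam 0.24.0, searched on both strands, and aligned with BLAST+ 2.17.0+ (e-value limit 1e-05). Shares have Wilson 95% and their differences Newcombe intervals at an error rate of 0.001, computed with SciPy 1.17.1; densities have exact Poisson 95% intervals. Tested on simulated data, the search found 100% of 200 planted matches for each of 16 patterns, and 3000 simulated summits were classed with 0 errors. Named were the 10 intervals of highest fold, the 10 genes with most intervals and the 3 genes of each list with the strongest interval. Also named were all loci of the study, the strongest printable interval with each motif, and 3 intervals on each side of the limit. Of the motif intervals, those of HNF1, AP-1, CTCF and HNF4 are shown, and those of other over-represented motifs, such as NF1, are not. Widest intervals, alike sequences and further windows were chosen after their values were seen. A few items that this rule names are not reported here. The members, lists and motifs were chosen with earlier results of these data known. Alternatives were fold limits of 5 and 20, a TSS distance of 10 kb, summits by fold, whole intervals, canonical exons only, and windows of 100 and 400 bp.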

Additional observations from a re-analysis of the deposited data

How the results depend on the processing

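No paired analysis was possible because libraries were pooled before the call and no column holds a single one; for the same reason no replicate could be left out. Choosing the highest summit by fold enrichment instead of q changed no value, so it tested nothing. Of 119 values recomputed under the other 7 settings, 81 were called the same, which means an unchanged call for a difference, a value within the 95% interval of the reported one for a median or share, and a ratio of at most 1.5 for a count. With a fold limit of 5 there were 13629 intervals in 5042 genes, with a median width of 1371 bp and GC of 50%, and CTCF, HNF1 and AP-1 shares of 4.74, 7.32 and 20.2%. With a limit of 20 there were 1267 intervals in 961 genes, with 3140 bp and 52.5%, and CTCF, HNF1, NF1 and AP-1 shares of 2.21, 12.5, 3.63 and 26.4%. Whole intervals clear of exons and TSS regions numbered 3191 in 1731 genes, with 1767 bp and 50%, and intervals more than 10 kb from a TSS had a median width of 1963 bp. Windows of 100 bp gave 2.88% for CTCF, 7.08% for HNF1, 1.57% for HNF4, 2.25% for DR1, 0.265% for ERR, 1.97% for NF1 and 15.5% for AP-1. Windows of 400 bp gave 4.58, 11.7, 2.61, 4.60, 0.984, 3.88 and 27.4% in the same order, and a GC of 49%; a larger window holds more letters by construction. Of 49 differences from first introns recomputed under these 7 settings, 46 kept their call. For every motif but CTCF the reported interval already took in 0, and a change of sign within such an interval still counted as kept. AP-1, for example, went from -1.66 to 3.73 points (-3.46 to 10.4) with a limit of 20. The 46, which are part of the 81 above, therefore say little about stability. The CTCF difference of 1.85 points was 1.05 points (-1.68 to 3.03) with a limit of 20, 1.70 points (-0.24 to 3.17) beyond 10 kb and 1.46 points (-0.17 to 2.89) for clear intervals, with fewer intervals in each.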
